A study of Rattus norvegicus with 2 samples.

Results

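The nuclear genes of oxidative phosphorylation were followed in the RNA of rat urine. They were taken as the deposited entries with a number-only identifier, which is a rat NCBI gene ID, whose RefSeq symbol begins with Nduf followed by a, b, c, s or v and a digit, with Uqcr, with Cox4 to Cox8 or with Atp5, or is Sdha to Sdhd or Cyc1. This rule found 82 of 16484 number-only genes, among 113011 features in all. Of the 82 entries, 36 belonged to complex I, 4 to complex II, 9 to complex III, 16 to complex IV and 17 to complex V, 81 were protein-coding and 1 (Ndufs6-ps1) was a pseudogene. The study sequenced 2 urine libraries of Sprague Dawley rats operated at 8 weeks of age (postnatal day 56). In the UUO rats the right ureter had been ligated, which closes the outflow of that kidney and leads to its fibrosis, and in the sham rats, labelled WT, the same surgery was done without ligation. At 2 weeks, a catheter in the ureter served to collect the urine. There was 1 library per group, how many rats gave urine to each is not stated, and without replicates neither an error nor a test could be had for any difference. The 2 value columns carry abbreviated condition names, which were read as UUO and WT, and every direction below rests on that reading.

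Oxidative phosphorylation is the making of ATP in the inner membrane of the mitochondrion. Complex I takes electrons from NADH and complex II from succinate, both pass them through ubiquinone to complex III, and cytochrome c carries them on to complex IV, which reduces oxygen. Complexes I, III and IV pump protons on the way, and complex V, the ATP synthase, uses their return to make ATP. The mitochondrial genome encodes part of the subunits of every complex but complex II, and nuclear genes encode the rest. The rule holds many of these nuclear genes but not all, since Ndufab1 is outside it. It also holds the pseudogene Ndufs6-ps1 and the inhibitor gene Atp5if1. Kidney tubules, above all the proximal tubule and the thick ascending limb, are rich in mitochondria, because the reabsorption of salt and solutes needs much ATP. Urine can hold RNA from the kidney, the lining of the urinary tract and blood, within cells or free of them. Per the methods the urine was spun in a centrifuge before freezing and again after thawing, a step that can remove cells. Fewer cells of a type and less RNA per cell cannot be told apart.

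Levels were given by the authors as FPKM (fragments counted per transcript length and library size), a scale meant to let genes be compared per length. The steps between low FPKM values fitted a normalising total of 2115000 fragments in WT and 2446000 in UUO urine. The fit took 128 bases off the length in WT and 176 in UUO urine. On a transcript of 500 bases 1 fragment then stands for an FPKM of 1.27 and 1.26, and on 1000 bases for 0.54 and 0.50. The weight of a fragment between the libraries thus changes with length, which no rescaling of a library removes. Its part in the values of short genes was not tested. Many of these subunits are small proteins, and an entry with an FPKM of a few units rests on few fragments. Differences are given as log2(FPKM + 1) in UUO minus WT urine. The whole of the table was shifted on this scale. Among 7218 number-only genes with FPKM of at least 1 in both libraries the median difference was -0.81, and it became -0.25 when the libraries were rescaled to equal sums and 0.04 when they were rescaled by the median ratio. Values are therefore also set against this median.

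The oxidative phosphorylation genes were well covered in both libraries. At FPKM of at least 1, WT urine held 70 of 82 (85.4%) and UUO urine 69 (84.1%), against 47.3% and 56.3% of all number-only genes. The median level over all 82 entries was 69.3 FPKM in WT and 49.8 FPKM in UUO urine. Of the detected ones, 36 in WT and 48 in UUO urine were within the highest 10% of detected genes. Together they summed to 11387 FPKM in WT and 5866 FPKM in UUO urine, which was 1.45% and 1.15% of the sum over all features and 3.37% and 2.16% of that over number-only genes. Of that sum, 0.488% in WT but 24.6% in UUO urine fell on the red-cell list (haemoglobin chains and 4 other genes of red-cell precursors). Outside that list the oxidative phosphorylation genes held 3.39% and 2.87%.

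**Figure D1:**
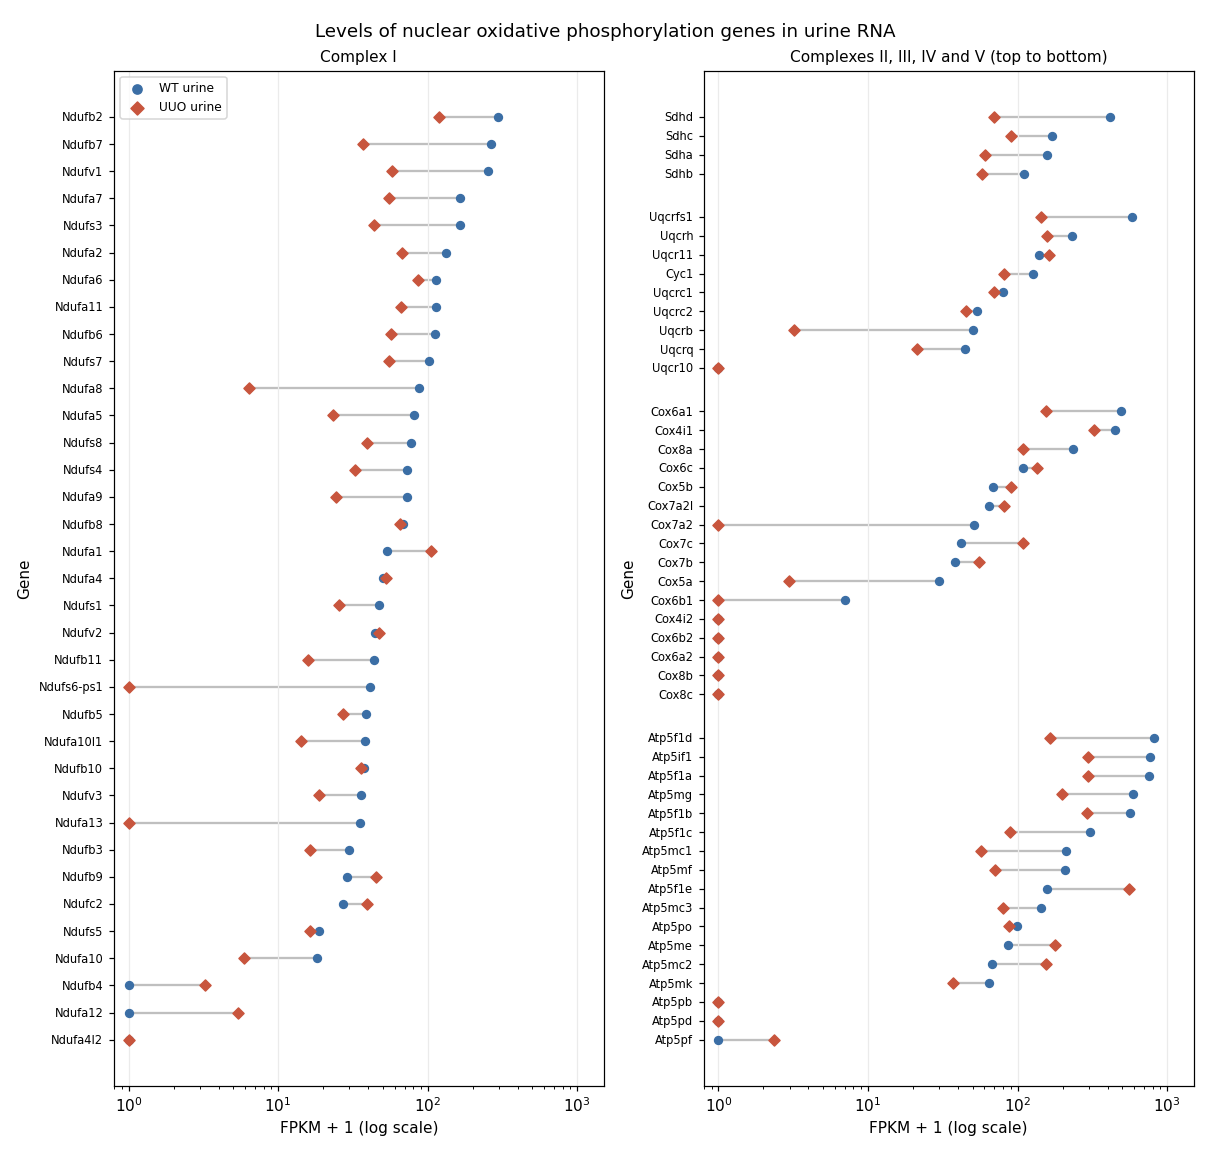
Level of 81 of the 82 genes in WT urine (circles) and UUO urine (diamonds) as FPKM + 1 on a log axis, 1 library per symbol, with grey lines joining the values of a gene; entries at 0 lie at 1 and a diamond there can cover the circle. Levels ran up to 810.1 FPKM in WT (Atp5f1d) and 555 FPKM in UUO urine (Atp5f1e), and 9 genes were listed at 0 in both.

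By the 2-fold limit (a log2 difference of at least 1 in size), 7 genes were higher, 32 lower and 34 neither in UUO urine, out of 73 that reached an FPKM of 1 in one library or the other. Over all number-only genes under the same filter 25.7% were higher and 36.5% lower. Of the 7 higher genes 3 were listed at 0 in WT urine, and of the 32 lower ones 4 were listed at 0 in UUO urine. Of all 9853 number-only genes under this filter, 1903 were listed at 0 in WT and 166 in UUO urine. Zeros in WT urine were thus common over the whole table, also for genes named below. Over the 66 genes detected in both libraries the counts were 4 higher and 28 lower, that is 6.06% and 42.4%, beside 7.01% and 42.8% of all number-only genes detected in both. Among genes detected in both, the shares of the group were thus close to those of the table, while among genes that reached an FPKM of 1 in one of the libraries 9.59% of the group and 25.7% of all were higher. The median difference of the 66 genes was -0.93, which is close to the -0.81 of all such genes, and the quartiles were -1.57 and -0.18 against -1.51 and -0.01. After rescaling by the median ratio, 16 of 73 genes were higher (21.9%) and 12 lower (16.4%), while 40.7% of all number-only genes were higher and 14.9% lower. After rescaling to equal sums, 12 were higher (16.4%) and 18 lower (24.7%), beside 35.0% and 20.8%.

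**Figure D2:**
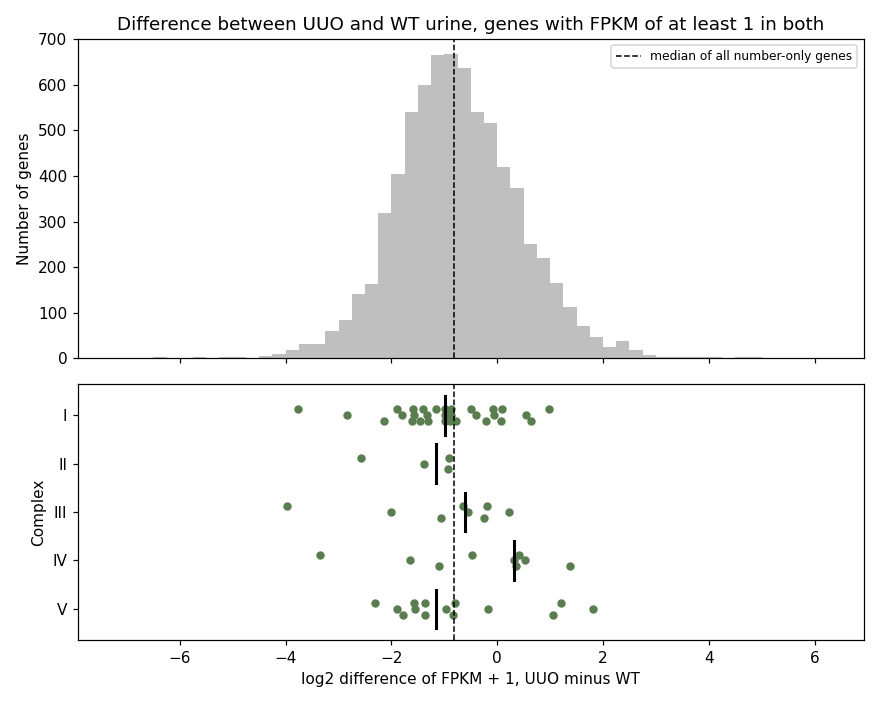
Log2 difference (UUO minus WT urine, FPKM + 1) of 7218 number-only genes detected in both libraries as counts per bin of width 0.25 (top) and of the 66 oxidative phosphorylation genes among them by complex (bottom, points), with black bars at the median of each complex and a dashed line at -0.81, the median of all genes. The medians of complexes I, II and V lie left of the dashed line, and 5 of 9 points of complex IV lie right of 0.

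The order of the genes by level was partly kept between the libraries. Over the 66 genes detected in both, Pearson's r of log2(FPKM + 1) was 0.68 and Spearman's rho 0.70, and over all 7218 number-only genes detected in both they were 0.72 and 0.68. They describe this pair of libraries only, since genes do not replicate each other. Complex V held the greatest part of the group's summed FPKM in both, with 42.3% in WT and 43.3% in UUO urine. Complex I held 25.0% and 22.6%, complex IV 13.8% and 18.0%, complex III 11.4% and 11.5%, and complex II 7.44% and 4.67%. These shares do not depend on the scaling of a library.

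Promoters of these genes were read from RefSeq (GRCr8) to see what the group shares beside its name. Of the 82 genes, 70 had a promoter of 300 bases (250 before to 50 after the first listed start). The motif of YY1, a factor known to bind many genes of mitochondrial function, was searched as GCCATNTT on both strands and was found in 26 of the 70 (37.1%), against 7.36% of 27457 promoters, counting 1 per gene, and 10.6% of 8100 promoters of number-only genes detected in either library. The motif of NRF1 (nuclear respiratory factor 1, a regulator of respiratory chain genes) was searched as GCGCANGCG and was found in 17 of the 70 (24.3%), against 6.26% and 13.4%. With a further C at the end of these letters, the form searched first, it was found in 13 (18.6%), against 4.71% and 10.3%. NRF1 and YY1 letters were counted separately where both were present. In complex II, 3 of 4 promoters held the YY1 letters, and in complex IV 2 of 13 did. Among genes detected in both libraries, the median log2 difference was -0.91 for 22 genes with and -0.94 for 35 without the YY1 letters, and -0.41 for 15 with and -0.98 for 42 without the NRF1 letters. The latter depended on the letters searched, since with the further C the medians were -0.79 for 11 genes and -0.98 for 46. Shown are Sdha, which held the most matches of any of the genes (3 of NRF1 and 1 of YY1), and Atp5mc1 and Atp5mc2, which encode the same mature protein and went opposite ways in urine as described below, with 0 and 1 matches of NRF1. Capitals mark the matches, and the sequences are at chr1:30764303-30764602 (plus strand), chr10:81523296-81523595 (minus strand) and chr7:135678169-135678468 (minus strand).
Sdha: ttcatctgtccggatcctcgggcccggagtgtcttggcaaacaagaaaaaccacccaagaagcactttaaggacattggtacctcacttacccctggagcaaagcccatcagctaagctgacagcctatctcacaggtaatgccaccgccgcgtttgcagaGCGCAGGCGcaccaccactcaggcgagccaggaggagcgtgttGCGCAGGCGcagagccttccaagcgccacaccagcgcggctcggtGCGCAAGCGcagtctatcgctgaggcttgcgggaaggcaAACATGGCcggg
Atp5mc1: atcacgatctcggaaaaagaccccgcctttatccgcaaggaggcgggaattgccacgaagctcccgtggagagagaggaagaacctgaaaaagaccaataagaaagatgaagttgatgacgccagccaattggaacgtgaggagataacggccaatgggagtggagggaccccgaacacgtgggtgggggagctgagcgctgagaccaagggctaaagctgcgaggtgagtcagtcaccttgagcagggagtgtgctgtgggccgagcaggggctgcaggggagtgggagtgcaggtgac
Atp5mc2: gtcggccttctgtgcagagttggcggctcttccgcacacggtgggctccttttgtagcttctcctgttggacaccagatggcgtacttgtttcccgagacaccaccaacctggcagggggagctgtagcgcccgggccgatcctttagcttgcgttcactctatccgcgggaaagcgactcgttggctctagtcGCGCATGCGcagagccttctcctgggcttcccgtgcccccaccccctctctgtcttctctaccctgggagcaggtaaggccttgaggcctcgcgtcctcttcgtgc

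Complex I, the NADH dehydrogenase, had a median log2 difference of -0.98 over its 35 genes that reached an FPKM of 1, with 2 higher and 15 lower by the 2-fold limit. These were 5.71% and 42.9%, beside 25.7% and 36.5% of all number-only genes. Among its 31 genes detected in both libraries 0% were higher and 41.9% lower, close to the 7.01% and 42.8% of all such genes. In complex I, the 7 core subunits of the hydrophilic arm carry the flavin and the iron-sulphur clusters. They had a median of -0.995, and the other 28 genes of -0.96. Ndufv1, which binds NADH and the flavin, stood at 252 FPKM in WT against 56.5 in UUO urine, a log2 difference of -2.14. Its direct partner Ndufv2, an iron-sulphur subunit, had 43.7 and 45.9 FPKM, and the ratio of Ndufv1 to Ndufv2 went from 5.76 in WT to 1.23 in UUO urine. Ndufs1, which holds several iron-sulphur clusters, had 46.2 and 24.7 FPKM. Of the other core subunits, Ndufs3 had 163 and 43.0 FPKM, Ndufs7 100.4 and 53.8 FPKM, and Ndufs8 76.8 and 38.1 FPKM. All 7 core subunits lay within 43.7 to 252 FPKM in WT and within 24.7 to 56.5 FPKM in UUO urine, a narrower range.

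Among the accessory subunits of complex I, Ndufb2 had the highest level in WT urine (295 FPKM) and also in UUO urine (118 FPKM). Among those detected in both libraries, the lowest differences were those of Ndufa8, with 86.1 FPKM in WT and 5.42 in UUO urine (log2 difference -3.76), and Ndufb7, with 263 and 36.1 FPKM (-2.83). Both proteins lie on the intermembrane side of the complex. Of all number-only genes detected in both libraries, 0.665% had a difference as low as that of Ndufa8, and 3.02% one as low as that of Ndufb7. At the other end were Ndufa1, a small membrane subunit, with 52.5 FPKM in WT and 105 in UUO urine (0.98), Ndufb9 with 27.8 and 43.9 FPKM (0.64) and Ndufc2 with 26.2 and 38.5 FPKM (0.54). These 3 were the only genes of complex I detected in both libraries with a difference above 0.5. Ndufa1 stayed just under the 2-fold limit.

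Some entries of complex I were listed at 0 in 1 library only. Ndufa13 (GRIM-19), an accessory subunit, had 34.4 FPKM in WT urine and was listed at 0 in UUO urine, where its locus summed to 8.18 FPKM. The pseudogene Ndufs6-ps1, a copy of the accessory subunit gene Ndufs6, had 40.1 FPKM in WT urine and was listed at 0 in UUO urine, where its locus summed to 5.59 FPKM. Ndufa12 and Ndufb4 were listed at 0 in WT and had 4.37 and 2.23 FPKM in UUO urine. When FPKM was summed over all entries with the same listed locus, Ndufb4 had the opposite direction, with 26.1 in WT against 13.6 in UUO urine. Ndufa4l2, known as induced by hypoxia, was listed at 0 in both libraries. Its paralogue Ndufa4, which is named for complex I but is found in complex IV, had 49.0 and 52.0 FPKM.

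Complex II, the succinate dehydrogenase, is the member of the chain that also works in the tricarboxylic acid cycle, and its 4 subunits are all nuclear. By the 2-fold limit 2 of the 4 (Sdha and Sdhd) were lower and 0 higher. All 4 were detected in both libraries, and of all such number-only genes 42.8% were lower and 7.01% higher. The median log2 difference of the 4 was -1.15, which became -0.53 after rescaling to equal sums and -0.23 by the median ratio. The flavoprotein Sdha had 156 FPKM in WT and 59.4 in UUO urine. The iron-sulphur subunit Sdhb had 109 and 57.0 FPKM. Of the membrane anchors, Sdhc had 169 and 89.6 FPKM (log2 difference -0.91, 0.02 by the median ratio) and Sdhd 413 and 68.1 FPKM. Sdhd stood apart from the other subunits in WT urine and not in UUO urine, since the ratio of Sdhd to Sdhc was 2.45 in WT and 0.76 in UUO urine, a ratio within a library that no rescaling changes.

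Complex III, the cytochrome bc1 complex, had a median log2 difference of -0.61 over 8 genes, which turned to 0.02 after rescaling to equal sums and to 0.32 by the median ratio. All 8 were detected in both libraries, and the median of all such number-only genes was -0.81. The Rieske iron-sulphur subunit Uqcrfs1 had the highest level in WT urine, 583 FPKM, and 143 FPKM in UUO urine, a log2 difference of -2.02. The core proteins were close in both libraries, with 78.6 and 68.7 FPKM for Uqcrc1 and 52.2 and 43.9 FPKM for Uqcrc2, and Uqcrc2 to Uqcrc1 stood at a ratio of 0.66 in WT against 0.64 in UUO urine. The ratio of Uqcrfs1 to Uqcrc1 was 7.42 in WT and 2.09 in UUO urine. Cyc1, cytochrome c1, had 127 and 80.3 FPKM. Among the small subunits, Uqcr11 had 139 FPKM in WT and 162 in UUO urine and was the highest of complex III in UUO urine. Uqcrh had 231 and 156 FPKM, and Uqcrq 43.2 and 20.3 FPKM. Uqcrb, which takes part in ubiquinone binding, had 49.5 and 2.21 FPKM, a log2 difference of -3.98, the lowest of the 66 genes detected in both libraries. Summed over its locus of 22 entries Uqcrb was 88.0 in WT and 16.2 in UUO urine. Uqcr10 was listed at 0 in both.

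Complex IV, cytochrome c oxidase, had a median log2 difference of -0.48 over 11 genes that reached an FPKM of 1 and of 0.32 over the 9 detected in both, so that its direction depended on the filter. Cox4i1, the regulatory subunit found in most tissues, had 449 FPKM in WT and 322 in UUO urine. Its partner in assembly Cox5a had 29.0 and 1.96 FPKM (log2 difference -3.34), while Cox5b, which binds zinc, had 67.3 and 89.5 FPKM (0.41). The ratio of Cox5b to Cox5a was 2.32 in WT and 45.7 in UUO urine. With both genes summed over their loci it stood at 2.33 and 21.8. The level of Cox5a in UUO urine is near that of single fragments, so the size of this ratio is uncertain. Cox6a1 was the highest gene of complex IV in WT urine, with 488 FPKM against 154 in UUO urine, and Cox8a had 234 and 108 FPKM. Cox7c, a small membrane subunit, had 41.1 FPKM in WT and 108 in UUO urine, a log2 difference of 1.38, and was the only gene of complex IV past the 2-fold limit upward. Its ratio to Cox4i1 was 0.09 in WT and 0.34 in UUO urine. Cox6c (107 and 134 FPKM), Cox7b (36.9 and 53.9 FPKM) and Cox7a2l, a factor of supercomplex assembly (63.2 and 80.7 FPKM), had differences between 0.32 and 0.53. Cox7a2 had 49.8 FPKM and Cox6b1 6.02 FPKM in WT urine, and both were listed at 0 in UUO urine.

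Complex IV is also the complex with tissue isoforms. Those of other tissues were listed at 0 in both libraries, namely Cox6a2 and Cox8b of heart and skeletal muscle, Cox4i2 of lung, and Cox6b2 and Cox8c of testis. The widespread partners Cox4i1, Cox6a1 and Cox8a had at least 234 FPKM in WT and at least 108 in UUO urine. Cox6b1, the widespread partner of Cox6b2, had only 6.02 FPKM in WT and was itself listed at 0 in UUO urine. The locus of Cox6b2 summed to 0 in WT and to 3.43 FPKM in UUO urine. A listed 0 is therefore not read as a silent isoform. Skeletal muscle genes Ckm and Acta1 were at 0 in WT and at or near 0 in UUO urine, while the smooth muscle genes Acta2 and Tagln were listed at 0 in WT and at 6.37 and 6.89 FPKM in UUO urine. Cox7a1 and Cox7b2 were not analysed here.

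Complex V, the ATP synthase, held the genes of the highest levels. Of its 15 genes that reached an FPKM of 1, 4 were higher and 7 lower by the 2-fold limit, that is 26.7% and 46.7% beside 25.7% and 36.5% of all number-only genes. The median was -0.97. Of the higher ones Atp5pf passed the filter through UUO urine only. Among the 14 genes of complex V detected in both libraries 3 (21.4%) were higher and 7 (50%) lower, beside 7.01% and 42.8% of all such genes. In the catalytic F1 head, Atp5f1a (alpha) had 751 FPKM in WT and 292 in UUO urine, and Atp5f1b (beta) 566 and 289 FPKM. Of the central stalk, Atp5f1c (gamma) had 305 and 87.4 FPKM and Atp5f1d (delta) 810.1 and 164 FPKM. Atp5f1d alone had a log2 difference of -2.30. Summed over its locus of 24 entries it had 888 FPKM in WT and 271 in UUO urine (-1.71). Atp5f1e (epsilon), the smallest subunit of the head, had 157 FPKM in WT and 555 in UUO urine. This gene (ID 245958, rn5 chromosome 3 from 178609110 to 178612013) shared its locus with no other entry, but 1 pseudogene is named after it. It was the gene of the highest level of the whole group in UUO urine and ranked 21 in WT urine. Its log2 difference was 1.81, or 2.63 above the median of all number-only genes, and 98.0% of number-only genes detected in both libraries had one as low or lower. The ratio of Atp5f1e to Atp5f1a was 0.21 in WT and 1.90 in UUO urine, 9.08 times apart, whereas the ratio of Atp5f1b to Atp5f1a was 0.75 and 0.99. Atp5if1, the inhibitor that binds the head when the membrane potential falls, kept its ratio to Atp5f1a, with 1.01 in both libraries (761 and 295 FPKM).

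The c-ring of the ATP synthase, which turns as protons pass, is encoded by 3 genes whose mature protein is the same. Atp5mc1 had 211 FPKM in WT and 56.0 in UUO urine, a log2 difference of -1.89 (ID 29754, rn5 chromosome 10 from 83700808 to 83703462). Atp5mc2 (ID 171082, rn5 chromosome 7 from 142056420 to 142064828) had 66.7 and 154 FPKM, a log2 difference of 1.20, and Atp5mc3 142 and 78.9 FPKM, one of -0.84. Atp5mc1 therefore made up 50.2% of the summed c-ring FPKM in WT and 19.4% in UUO urine, while Atp5mc2 made up 15.9% and 53.4%. These shares, like the ratio of Atp5mc2 to Atp5mc1 of 0.32 in WT and 2.75 in UUO urine, are free of the scaling of a library.

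**Figure D3:**
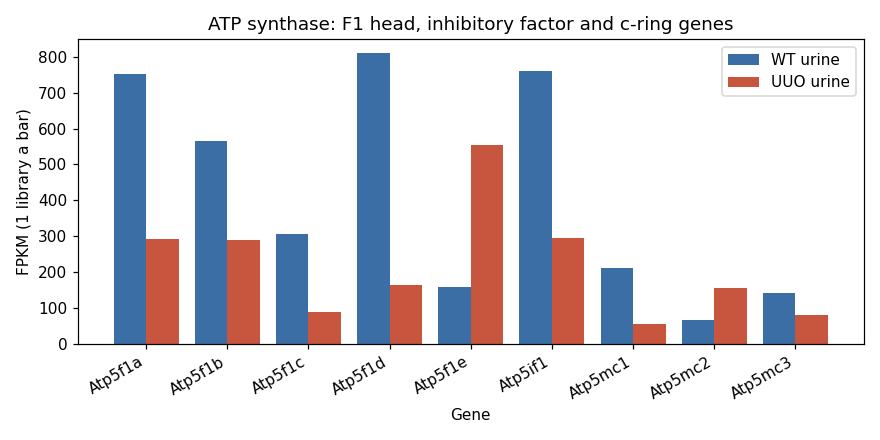
FPKM of the F1 head genes (Atp5f1a to Atp5f1e), the inhibitor Atp5if1 and the 3 c-ring genes in WT and UUO urine, 1 library per bar and no error bars because there are no replicates. Atp5f1e (157 and 555 FPKM) and Atp5mc2 (66.7 and 154 FPKM) are the genes in this plot whose UUO bar is the taller.

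Of the other ATP synthase genes, Atp5me, a membrane subunit, had 84.8 FPKM in WT and 177 in UUO urine (log2 difference 1.05). Atp5mg had 593 and 198 FPKM, and Atp5mk 62.9 and 35.8 FPKM. Atp5mf had 207 and 69.6 FPKM, a log2 difference of -1.56, but its locus of 83 entries summed to 557 and 412 FPKM, one of -0.43, which is within the 2-fold limit. The peripheral stalk, which holds the head in place, was seen mainly through Atp5po, with 97.6 and 86.1 FPKM. Of its other genes, Atp5pb was listed at 0 in both libraries. Atp5pd was listed at 0 in both as well, while its locus of 8 entries summed to 228 FPKM in WT and 90.8 FPKM in UUO urine. Atp5pf was listed at 0 in WT and at 1.37 FPKM in UUO urine. Since these subunits belong to every ATP synthase, a listed 0 is not taken as absence of the transcript.

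Several of the zeros lay at entries with an uncertain place in the genome. For 5 genes (Atp5mk, Atp5pd, Atp5pf, Ndufb4 and Uqcr10) the deposited locus is on another chromosome than the gene in RefSeq (GRCr8), and 4 of these 5 had a listed 0 in WT, whereas 8 of the other 77 did. The entry of Atp5pf spans chromosome 5 from 155473747 to 155474443, 696 bp. RefSeq lists 210 entries under the rule for this group, of which 99 are pseudogenes, and 40 of the 82 genes have at least 1 pseudogene named after them. Atp5f1e has 1, Atp5mc1 2 and Atp5mc2 4 of these, and Atp5mc3 has 0. Reads of such near-identical copies can be divided among them, so the FPKM of these genes is uncertain. Among the genes detected in both libraries, the median log2 difference was -0.91 for 31 with and -0.98 for 35 without a named pseudogene. All but 5 of the 82 entries also shared their locus with other entries, but the gene itself held a median of 99.6% of the summed FPKM of its locus in WT and 98.0% in UUO urine. Summing the locus moved 6 of the 82 entries across the 2-fold limit. These were Atp5mf, Ndufb4 and Uqcrq, which had reached an FPKM of 1, and Atp5pd, Cox6b2 and Ndufa4l2, which were listed at 0 in both libraries.

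Other genes of mitochondrial energy metabolism were described from lists. All 17 genes of the tricarboxylic acid cycle and the pyruvate dehydrogenase complex were detected in both libraries, with 0 higher and 9 lower by the 2-fold limit and a median log2 difference of -1.35. Of all number-only genes detected in both, 7.01% were higher and 42.8% lower, with a median of -0.81. Pdhb had 107 FPKM in WT and 21.3 in UUO urine, and Fh, fumarase, 82.4 and 16.8 FPKM, the lowest differences of this list. Idh3a (9.85 and 11.6 FPKM) and Sucla2 (25.2 and 16.9 FPKM) were at the other end. Of 11 carriers, also all detected in both libraries, 4 were lower and 0 higher, with a median of -0.85. Cycs, cytochrome c, had 48.0 and 21.9 FPKM, Ndufab1, the acyl carrier protein that is also a subunit of complex I, 45.3 and 3.76 FPKM, the outer membrane channel Vdac1 220.4 and 62.7 FPKM, and the ADP/ATP carrier Slc25a5 28.8 and 56.7 FPKM.

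Assembly factors of the complexes were described in the same way. Of 37 found, 35 reached an FPKM of 1, 8 were higher and 10 lower, and the median was 0.01. Of all number-only genes under this filter 25.7% were higher and 36.5% lower, with a median of -0.51. Cox17, the copper chaperone of complex IV, had 638 FPKM in WT and 16.1 in UUO urine, which was the lowest difference (-5.22) of this list, and Nubpl, which delivers iron-sulphur clusters to complex I, had 52.8 and 4.54 FPKM. Cox16 (8.50 and 15.5 FPKM) and Acad9 (5.10 and 6.87 FPKM) had the greatest differences of those detected in both. Of the 8 higher factors, 6 were listed at 0 in WT urine, the highest being Uqcc3 with 22.3 FPKM in UUO urine. The others, Ndufaf1 and Ttc19, had 0.70 and 0.69 FPKM in WT urine. All 8 thus passed the filter through UUO urine only, so their direction was fixed. The median of 0.01 is in part set by the filter. None of the factors detected in both libraries was higher by the 2-fold limit. Of 12 regulators of mitochondrial biogenesis, 4 were higher and 5 lower, with a median of -0.13. Of the higher ones Twnk, Nrf1 and Tfam passed the filter through UUO urine only, so their direction was fixed and this median is in part set by the filter. Twnk had 0 FPKM in WT and 3.90 in UUO urine. Esrra, a nuclear receptor that acts with PGC-1 coactivators, had 164 and 41.3 FPKM. Nrf1 and Tfam, the factor that packs and transcribes mitochondrial DNA, were listed at 0 in WT and had 4.18 and 10.6 FPKM in UUO urine. Ppargc1a, which encodes the coactivator PGC-1 alpha, had 1.83 and 5.14 FPKM, its relative Ppargc1b 18.9 and 3.79 FPKM, and Gabpa 2.31 and 4.26 FPKM.

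Other sets of genes used in every cell are set beside these values, with no test of the difference. The median log2 difference was -0.92 over 63 mitochondrial ribosomal protein genes (8 higher, 29 lower), -1.14 over 38 proteasome genes (2 higher, 22 lower) and 0.32 over 53 cytosolic ribosomal protein genes (20 higher, 12 lower). Over all number-only genes under the same filter it was -0.51, with 25.7% higher and 36.5% lower. The oxidative phosphorylation genes, with a median of -0.94 over 73, were nearest to the mitochondrial ribosomal proteins.

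Markers of cell types whose RNA urine can hold moved between the libraries too, and their part in the values of the oxidative phosphorylation genes was not tested. The counts below stand beside 25.7% higher and 36.5% lower of all number-only genes under the same filter. Of 12 proximal tubule genes 9 were lower and 0 higher by the 2-fold limit, with a median log2 difference of -2.09 and a summed level of 1651 FPKM in WT and 712 FPKM in UUO urine. None of these was at 0 in either library. Slc13a3 (33.4 and 1.08 FPKM) and the organic anion transporter Slc22a6 (19.0 and 1.78 FPKM) had the lowest differences of those detected in both, and Aqp1 (26.7 and 25.2 FPKM) and Fbp1 (76.9 and 53.6 FPKM) the greatest. Of 9 genes of the loop, distal tubule and collecting duct 2 were lower and 2 higher (median -0.19, summed 316 and 282 FPKM), and Umod, the defining gene of the thick ascending limb, had 30.1 and 26.3 FPKM. Of 7 urothelium genes 2 were higher and 1 lower (median 0.65, summed 1174 and 1691 FPKM), and of the higher ones Krt5 was at 0 in WT urine. Of 11 leukocyte genes 6 were higher (median 1.90 over 8, summed 15.6 and 74.2 FPKM), and 8 of the 11, among them Ptprc, were at 0 in WT urine. Of the higher ones Itgam, Ptprc, Fcer1g, Cd68 and Tyrobp passed the filter through UUO urine only, so their direction was fixed. Those detected in both libraries were Cd14 (log2 difference -0.40), Itgb2 (0.39) and Lyz2 (1.68). All 9 red-cell genes were higher (median 4.15, summed 1647 and 66632 FPKM), and of the 7 muscle genes 3 were higher (median 1.99 over 4, summed 8.34 and 31.3 FPKM). Among these higher genes Epb42 of the red-cell list and Acta2 and Tagln of the muscle list were at 0 in WT urine.

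**Figure D4:**
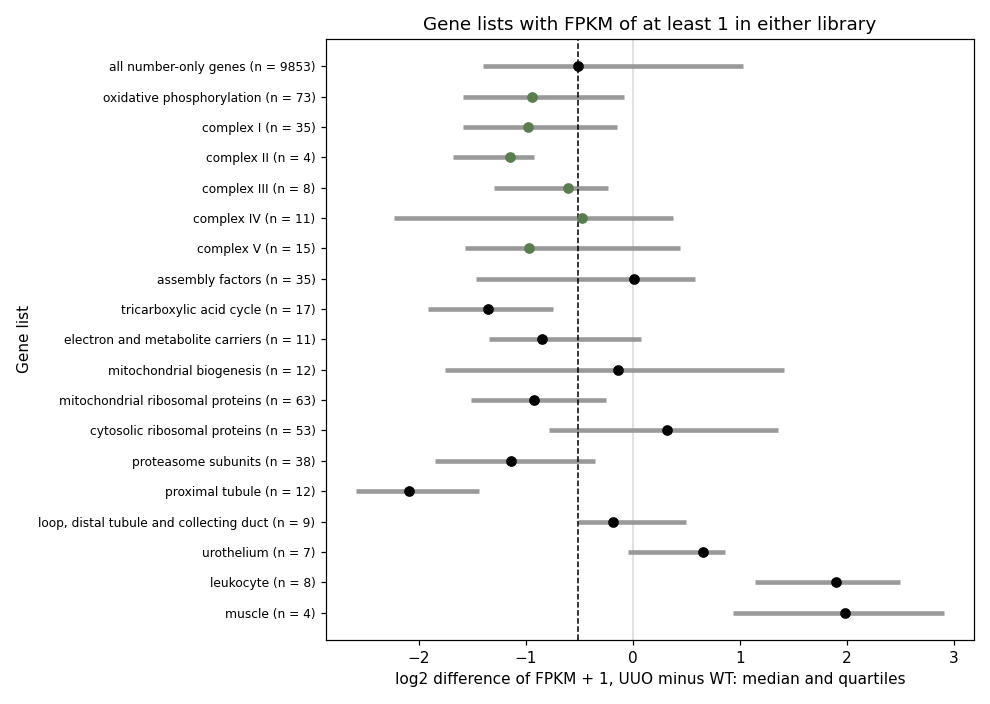
Median (points) and quartiles (bars) of the log2 difference, UUO minus WT urine, for all number-only genes, the oxidative phosphorylation genes and their complexes (green) and the other lists, over genes that reached an FPKM of 1 in one of the libraries. The red-cell list (median 4.15) lies beyond the axis and is not drawn, and the dashed line marks the median of all number-only genes, -0.51, below which lie all complexes but complex IV. This line includes genes at 0 in WT urine, whose difference can only lie above 0. Among genes detected in both libraries the median of all was -0.81, and complex III (-0.61) lay above it.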

How the data were processed

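Urine RNA of 1 WT (sham) and 1 UUO library was sequenced, and 0 replicates were available. Per the labels the authors used Bowtie2 2.0.6, TopHat2 2.0.9, Cufflinks 2.1.1 and Cuffdiff 2.1.1 with the rn5 build. The methods describe rRNA removal and strand-specific libraries for kidney RNA. The authors deposited 1 FPKM value per feature and library in a Cuffdiff layout. Which total entered its scaling is not stated. Its columns of the authors' fold changes, p-values and calls were not used. The column saying whether a feature had enough reads for testing, deposited by the authors as a word, served only in 1 alternative. The abbreviated column names were read as WT and UUO with help of the series title and the study's lists.

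Symbols came from an NCBI RefSeq table (GRCr8), which matched 16329 of 16484 number-only IDs (99.1%). Of its positions only the chromosome was compared, and printed gene positions are those deposited. Promoter sequences and their positions are RefSeq, GRCr8. Analyses used Python 3.11.15 with pandas 2.3.3, numpy 2.4.6, scipy 1.17.1 and matplotlib 3.10.9. A pseudocount of 1 was added before log2, and a 2-fold limit was applied at FPKM of at least 1 in either library. No p-value was computed. Summaries were tested on simulated data. Depth was approached by fitting FPKM of assembled loci of 400 to 1200 bp, alone at their position, as whole fragments. Within 0.1 of a whole number came 93.5% of 186 values in WT and 99.5% of 3530 in UUO urine. Transcript lengths were not used here, so no counting interval is given.

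Described genes were, per complex, the highest in each library, the 3 greatest and the 3 lowest differences among genes detected in both, those at 0 in 1 library, core subunits, tissue isoforms and c-ring genes, and in the lists of energy metabolism and proximal tubule the 2 greatest and the 2 lowest. Other genes, promoters and ratios were picked with their values in view. The values of 1 gene of complex I are not reported here, although it is counted in all summaries. The members and lists were chosen with earlier results of these data known. Alternatives were other pseudocounts, filters, fold limits and rescalings, FPKM summed per locus, and placing Ndufa4 in complex IV.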

Additional observations from a re-analysis of the deposited data

How the results depend on the processing

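No paired analysis was possible because there is 1 library in WT and 1 in UUO. A count or share is called unchanged within 1.5 times of that reported, a log2 value when its sign stays and it remains on the same side of the 2-fold limit. Of 131 recomputed counts, shares and medians 96 were unchanged, and of 318 recomputed values of the 53 genes chosen by the rule 242. Medians called unchanged could still move close to 0. That of the group (-0.94) was -0.35 after rescaling to equal sums and -0.04 by the median ratio. That of complex I (-0.98) was -0.36 and -0.06 under these rescalings, and that of complex V (-0.97) -0.35 and -0.04. A pseudocount of 0.1, leaving out the pseudogene and counting Ndufa4 with complex IV moved none of the values recomputed under them.

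The number of higher genes (7 as reported) became 12 when rescaled to equal sums, 16 by the median ratio, 0 by the 75th percentile, 3 with a pseudocount of 10, 1 with a 4-fold limit, and 4 when 5 FPKM were required in one library, or 1 or 20 in both, or among features marked as tested. The number of lower genes (32) became 18, 12 and 70 under these rescalings and 12 with a 4-fold limit. Filters change how many genes can be counted. The rescaling to the 75th percentile divides UUO values by 9.53, since 66.4% of the features it used are listed at 0 in WT urine and 2.77% in UUO urine. Under it the median was -3.96 for the group, -3.96 for complex I, -3.75 for III, -2.84 for IV and -4.38 for V, and Atp5f1e (-1.42), Cox7c (-1.77), Atp5mc2 (-1.98) and Atp5me (-2.13) turned lower. Ndufb4 turned to -0.89 when summed over its locus.

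The median of complex II was -0.53 after rescaling to equal sums and -0.23 by the median ratio, that of complex III 0.0155 and 0.32, and that of complex IV 0.15 and 0.45. Complex IV was at 0 without a filter, at 0.32 with FPKM of at least 1 in both and at 0.33 with at least 20 in both. Complex V was at -1.16 when 5 FPKM were required in one library or 1 or 20 in both, and at -1.36 among tested features and without genes that RefSeq places on another chromosome. The median of the group relative to that of all genes (-0.43) stayed below 0 under each alternative, from -0.95 to -0.07, but its size depended on the filter. It was -0.12 with FPKM of at least 1 in both libraries and -0.07 with at least 20 in both. Under the filter reported, 1903 of all 9853 genes and 3 of the group's 73 were at 0 in WT urine. The difference of such genes can only lie above 0, so this relative value is in part set by the filter. The share of all FPKM held by the group (1.45% in WT, 1.15% in UUO urine) was 3.37% and 2.16% over number-only genes and 2.53% in WT urine over loci of at least 500 bp. The limit of 20 and the step on RefSeq chromosomes were chosen after seeing the data. Scaling causes were not tested. Depth limits genes of a few FPKM, which rest on few fragments.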

Other observations

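Some genes of electron and metabolite transport, which the rule does not hold, were also measured. Etfa and Etfb together form the electron transfer flavoprotein, which feeds electrons of fatty acid oxidation to ubiquinone. Etfb had 258 FPKM in WT and 85.2 in UUO urine, while Etfa had 44.7 and 73.0 FPKM. The dehydrogenase Etfdh, which receives them, had 11.4 and 14.3 FPKM. The outer membrane channels Vdac1, Vdac2 and Vdac3 had 220.4, 67.5 and 71.6 FPKM in WT and 62.7, 48.4 and 38.5 FPKM in UUO urine. Slc25a3, the phosphate carrier that supplies the ATP synthase, had 311 and 173 FPKM. These genes were chosen after their values were seen.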
